A study of Mus musculus with 6 samples.

Results

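The genes described here are the 9 enzyme genes that carry glutamine and proline carbon to citrulline in enterocytes and pass it on through arginine: Aldh18a1, Prodh, Oat, Nags, Cps1, Otc, Ass1, Asl and Arg2. They were taken by symbol from a deposited table of 55450 gene identifiers. Each symbol matched 1 identifier, and all 9 passed the filter on low counts that left 15028 genes. The data were polyA RNA-seq counts from small intestinal epithelium scraped with a glass slide, 1 library per mouse. The 3 control mice (animals 482, 483 and 486) carried loxP-flanked alleles of both targeted genes, Ncor1 among them, and no Vil1-Cre-ERT2. The 3 knockout mice (423, 476 and 477) had these alleles too and were positive for Vil1-Cre-ERT2, a transgene in which the villin 1 promoter drives a Cre recombinase that tamoxifen activates. Per the labels' protocols, mice were injected with tamoxifen at 15 mg per 100 g body weight for 5 days at 8 to 9 weeks of age and entered metabolic cages at day 21. The protocol is given for both groups, so the transgene differed between them as well as the deletion, and the effects of each cannot be told apart. The labels name no section of the small intestine for any library.

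In the small intestine, glutamine and glutamate are turned into pyrroline-carboxylate by the synthase that Aldh18a1 encodes, and proline reaches the same intermediate through proline dehydrogenase (Prodh). Ornithine aminotransferase (Oat) converts it to ornithine. Inside the mitochondrion, ornithine transcarbamylase (Otc) joins ornithine to carbamoyl phosphate, which carbamoyl phosphate synthetase (Cps1) makes when it is activated by the product of N-acetylglutamate synthase (Nags). The gut releases the resulting citrulline into the blood, and the kidney turns it into arginine with argininosuccinate synthase (Ass1) and lyase (Asl). Arginase 2 (Arg2) is the mitochondrial enzyme that splits arginine into ornithine and urea.

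Levels are given as CPM, counts per 1000000 counts of the TMM-scaled library, with TMM a trimmed mean of ratios between libraries. Total counts ran from 23476031 to 46835165 per library. The targeted gene Ncor1, which encodes a nuclear receptor corepressor, stood at 140.4, 137 and 99.3 CPM for controls 482, 483 and 486, against 31.3, 36.4 and 22.5 CPM for knockouts 423, 476 and 477, lower in every knockout. The enterocyte genes Vil1, Cdh17, Epcam, Fabp2, Alpi, Apoa1, Apoa4 and Krt20 summed to 42642 to 60697 CPM in controls and 83892 to 168602 CPM in knockouts, with 2 of 8 higher and 1 lower. The higher genes were the abundant Fabp2 (mean 12931 CPM in controls and 59597 CPM in knockouts) and Apoa4 (16306 and 39323 CPM), and the lower one was Vil1 (-1.20 on the log2 scale), whose promoter drives the Cre. Epcam had a log2 fold change of -0.62 and Cdh17 of -0.26, neither past the threshold. With the 20 most abundant genes left out, 5 of the 8 were tested by edgeR and 1 was called, lower, at a median log2 fold change of -0.25. Of 12 leukocyte markers 10 were tested, 1 was higher (Csf1r, 0.98) and 2 were lower (Ptprc, -1.78, and Itgam, -1.48). Their summed levels were 109 to 389.6 CPM in controls and 67.5 to 168 CPM in knockouts. Jchain, which did not pass (adjusted p = 0.25 by edgeR), had 52.4 to 309 CPM of this in controls and 4.08 to 98.4 CPM in knockouts. Of 8 mesenchyme and endothelium markers none of 7 tested passed (8.64 to 25.5 CPM in controls and 5.72 to 33.2 CPM in knockouts; 2 had an unadjusted p under 0.05 by edgeR, and DESeq2 called 1 of 6 lower). Markers of liver, where the urea cycle is most active, and of pancreas summed to 1.96 to 3.14 CPM in controls and 2.33 to 6.27 CPM in knockouts, 1 of 2 tested was lower, and the liver marker Alb was at 1.61 CPM or less. In bulk RNA, fewer cells of a type and less RNA per cell cannot be told apart.

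In the knockout, 2 genes of the route from glutamate to ornithine were higher and the gene of the step from ornithine to citrulline was lower. On the log2 scale Aldh18a1 rose by 1.22 and Oat by 1.14, whereas Otc fell by 1.26 and Prodh fell by 1.24. The call of Oat was lost under 5 of the 16 alternative settings. The activator gene Nags, the arginine-making genes Ass1 and Asl, and the arginase gene Arg2 did not pass the test. With a Benjamini-Hochberg adjusted p under 0.05 in edgeR's quasi-likelihood test over all 15028 genes, 2 of the 9 were higher and 2 lower (22.2% each). Of all genes 17.3% were higher, 18.3% lower and 35.6% either, so the members' counts were near the background and are not a result about the 9 genes. In 3 of the 9 every knockout lay above every control (23.9% of all genes), in 2 every knockout lay below (26.4% of all genes), and in 4 the genotypes overlapped (50.3% of all genes did not overlap). The median log2 fold change was 0.29 for the 9 genes and -0.06 for all genes tested. Scaling by library size alone moves the median of all genes by -0.44 and gives 1133 genes higher and 4554 lower instead of 2596 and 2752, so each direction below is relative to TMM scaling.

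**Figure D1:**
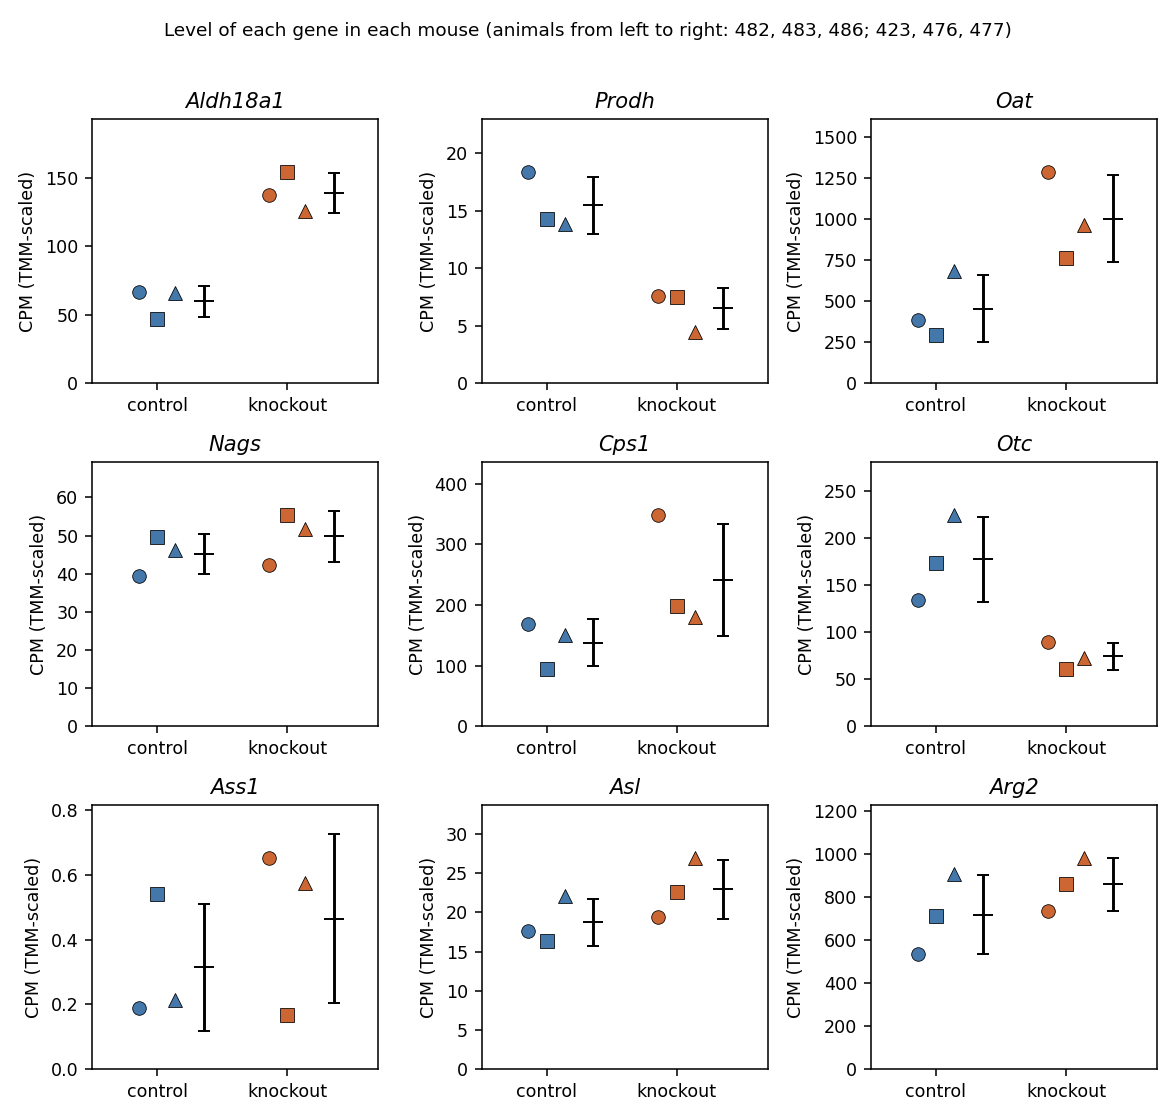
Level of each of the 9 genes in each mouse, in TMM-scaled CPM on linear axes from 0; points are mice, and the bar beside each group is the mean ± SD (n = 3). Aldh18a1, Oat and Cps1 lie higher in every knockout than in every control, Prodh and Otc lie lower, and the other 4 overlap.

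The promoter bases of Oat and Otc are given because these enzymes make and use the same metabolite, ornithine, and their genes moved in opposite directions. Each line shows the 250 bases before the gene's start in RefSeq on GRCm38.p6, read 5′ to 3′ on the gene's strand, with matches to AGGTCA or AGTTCA, core letters that many nuclear receptors bind, in capitals on either strand.
Oat, chr7:132576399-132576648, minus strand: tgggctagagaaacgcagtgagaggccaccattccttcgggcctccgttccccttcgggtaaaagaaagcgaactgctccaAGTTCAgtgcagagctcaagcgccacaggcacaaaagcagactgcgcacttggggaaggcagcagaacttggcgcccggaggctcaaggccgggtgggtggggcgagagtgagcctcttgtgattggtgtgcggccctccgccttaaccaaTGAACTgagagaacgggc
Otc, chrX:10252055-10252304, plus strand: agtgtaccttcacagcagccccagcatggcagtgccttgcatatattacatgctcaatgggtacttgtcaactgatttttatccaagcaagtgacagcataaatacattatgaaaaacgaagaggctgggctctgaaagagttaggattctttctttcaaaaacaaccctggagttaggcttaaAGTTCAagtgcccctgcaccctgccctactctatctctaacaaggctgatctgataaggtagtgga
AGTTCA occurred in the Oat bases on both strands and in the Otc bases once, and in 11.8% of the 32851 RefSeq windows of the same length. AGGTCA occurred in neither, and in 14.02% of all windows. Neither window held TGATGNAA, the letters of a C/EBP-ATF element, found in 3.45% of all windows on either strand. The RefSeq table held a window for 6 of the 9 genes. The windows of Aldh18a1 and Prodh, the other genes that passed the test, held none of these 3 motifs. Of the genes that did not pass, Nags had AGGTCA on the opposite strand in its window, and the window of Ass1 held none. The counts do not show which start site was in use, and a match is a description of letters.

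Aldh18a1 (ENSMUSG00000025007, chromosome 19, 40550257 to 40588463, minus strand, mm10) opens the route from glutamate. It stood at 66.7, 46.8 and 65.6 CPM for controls 482, 483 and 486, against 137, 154 and 125 CPM for knockouts 423, 476 and 477. Each knockout was above each control, with a log2 fold change of 1.22 (adjusted p = 0.0030, SE 0.21). Its call held under all 16 alternatives, and its log2 fold change fell to 0.78 with library-size scaling alone. Prodh (ENSMUSG00000003526, chromosome 16, 18060357 to 18090203, minus strand), which feeds proline into the same intermediate, stood at 18.3, 14.3 and 13.8 CPM for controls 482, 483 and 486, against 7.60, 7.48 and 4.49 CPM for knockouts 423, 476 and 477. Every knockout was below every control, with a log2 fold change of -1.24 (adjusted p = 0.0072, SE 0.26), and of -0.80 after each library's trend with gene length and GC content was removed (adjusted p = 0.021). Per kilobase of exon, the ratio of Aldh18a1 to Prodh was 6.28 to 9.07 in controls and 34.6 to 53.5 in knockouts, a ratio chosen after the values were seen and not tested.

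Oat (ENSMUSG00000030934, chromosome 7, 132557478 to 132576398, minus strand) connects this intermediate with ornithine. It stood at 387, 293 and 685 CPM for controls 482, 483 and 486, against 1286, 762 and 962 CPM for knockouts 423, 476 and 477. Control 486 was the highest control and lay just under knockout 476, so the groups were separate by a narrow margin. Its log2 fold change was 1.14 (adjusted p = 0.030, SE 0.35). The call was lost without control 482 (1.03, adjusted p = 0.083), control 483 (0.90, 0.10), knockout 423 (0.95, 0.083) or knockout 477 (1.18, 0.059) in the edgeR test. With library-size scaling alone it was 0.74 (adjusted p = 0.11).

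Otc (ENSMUSG00000031173, chromosome X, 10252305 to 10321024, plus strand), the citrulline-forming enzyme, stood at 135, 173 and 224 CPM for controls 482, 483 and 486, against 89.2, 61.0 and 72.8 CPM for knockouts 423, 476 and 477. The lowest control was above the highest knockout, and the log2 fold change was -1.26 (adjusted p = 0.0054, SE 0.25). Under the 16 alternatives it ran from -1.66 to -1.05 and passed the threshold in each. Cps1 (ENSMUSG00000025991, chromosome 1, 67123026 to 67231259, plus strand), which supplies the carbamoyl phosphate, stood at 168, 94.8 and 151 CPM for controls 482, 483 and 486, against 348, 198 and 179.7 CPM for knockouts 423, 476 and 477. Every knockout lay above every control, knockout 423 far above the others, yet the gene did not pass the test with a log2 fold change of 0.81 (95% interval 0.11 to 1.51, adjusted p = 0.070). It passed with DESeq2 (0.81, adjusted p = 0.035), without a filter on low counts (0.77, 0.023) and with the length and GC trend removed (1.01, 0.035). Without knockout 423 the log2 fold change was 0.49 (adjusted p = 0.21). The crypt and cycling markers Lgr5, Olfm4, Ascl2, Mki67 and Top2a summed to 228 CPM in knockout 423, 37.1 and 34.1 CPM in knockouts 476 and 477, and 119.8, 41.3 and 65.3 CPM in controls 482, 483 and 486. None of the 4 tested passed by edgeR, 0 had an unadjusted p under 0.05, and DESeq2 called 1 of 5 lower. Lgr5 was at 0 in knockout 477. Olfm4 gave most of the sum in each library (189 CPM in knockout 423 and 78.3 CPM in control 482). The order of the sum within each genotype was that of Cps1, but single markers departed from it. Olfm4 was at 26.3 CPM in knockout 476 and 28.3 CPM in knockout 477. Mki67 was at 8.54 CPM in control 483 and 8.26 CPM in control 486. The part of this list in the Cps1 levels was not tested.

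Nags (ENSMUSG00000048217, chromosome 11, 102145513 to 102149477, plus strand) stood at 39.5, 49.7 and 46.1 CPM for controls 482, 483 and 486, against 42.3, 55.3 and 51.7 CPM for knockouts 423, 476 and 477. The groups overlapped, and its log2 fold change was 0.14 (95% interval -0.29 to 0.57, adjusted p = 0.59). Of its exon bases 15.6% overlap the antisense gene Gm11586 (0.946 to 0.957 CPM in controls and 0.288 to 1.09 CPM in knockouts), and the strand setting of the counting is not given in the sources used here. The ratio of Cps1 to Otc, per kilobase of exon, was 0.954, 0.417 and 0.512 in controls 482, 483 and 486 and 2.98, 2.47 and 1.89 in knockouts 423, 476 and 477. The ratio does not depend on how libraries are scaled. Per kilobase of exon it was below 1 in all 3 controls and above 1 in all 3 knockouts. Its place against 1 does depend on the length scaling. Without that scaling, control 482 had 168 CPM of Cps1 and 135 CPM of Otc. The ratio was chosen after the values were seen and not tested.

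**Figure D2:**
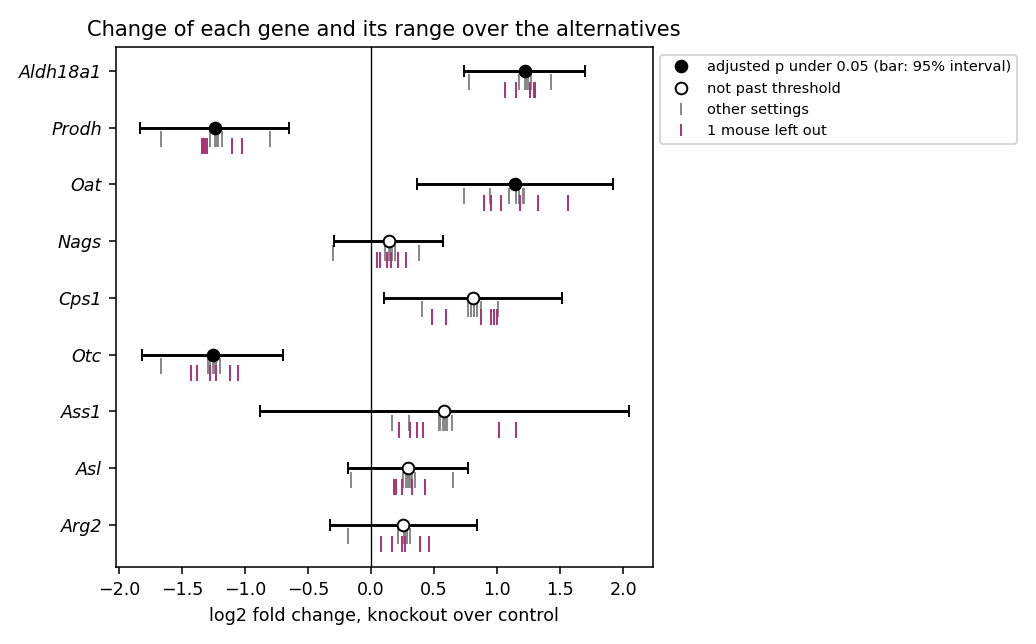
Log2 fold change of knockout over control for each gene (horizontal axis) with its 95% interval; filled circles have an adjusted p under 0.05, grey ticks are other settings and purple ticks leave out 1 mouse. Aldh18a1 (1.22), Oat (1.14), Prodh (-1.24) and Otc (-1.26) stay on their side of 0 under every alternative drawn, while ticks of Nags, Asl and Arg2 fall on both sides.

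Ass1 (ENSMUSG00000076441, chromosome 2, 31470207 to 31520672, plus strand), the enzyme that commits citrulline to arginine, was barely detected in either genotype. Its counts were 9, 16 and 11 in controls 482, 483 and 486 and 18, 5 and 10 in knockouts 423, 476 and 477, or 0.166 to 0.651 CPM, where 3 counts correspond to 0.0586 to 0.173 CPM. Its log2 fold change by edgeR was 0.58 (adjusted p = 0.51), with a 95% interval of -0.88 to 2.04 that spans 0. These counts do not tell apart differences within that interval. Asl (ENSMUSG00000025533, chromosome 5, 130011258 to 130029247, minus strand), the next enzyme, stood at 17.7, 16.4 and 22.1 CPM for controls 482, 483 and 486, against 19.4, 22.6 and 26.9 CPM for knockouts 423, 476 and 477. The groups overlapped, with a log2 fold change of 0.29 (95% interval -0.18 to 0.77, adjusted p = 0.30).

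Arg2 (ENSMUSG00000021125, chromosome 12, 79130777 to 79156301, plus strand), the arginase, stood at 536, 711 and 906 CPM for controls 482, 483 and 486, against 734, 860.3 and 979 CPM for knockouts 423, 476 and 477. The groups overlapped, and the log2 fold change was 0.26 (95% interval -0.33 to 0.84, adjusted p = 0.47). Its sign turned with library-size scaling alone (-0.18) and with the length and GC trend removed (-0.18), and it passed the threshold under none of the 16 alternatives. Exons of Vti1b on the opposite strand share 20.0% of the exon bases of Arg2, and Vti1b stood at 70.1 to 129 CPM in controls and 129.5 to 182 CPM in knockouts. The other arginase gene, Arg1, the main arginase of liver, had 0.211 to 0.405 CPM in controls and 0.0665 to 1.21 CPM in knockouts (log2 fold change 0.59, 95% interval -1.29 to 2.47, adjusted p = 0.61).

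Arg2 had the highest mean level of the 9 genes per length in both genotypes, and in knockout 423 Oat was above it (545 against 514 CPM per kilobase of exon). In controls the mean level in CPM per kilobase of exon, with the range over mice, was 503 (376 to 635) for Arg2, 193 (124 to 290.1) for Oat, 41.9 (31.8 to 52.9) for Otc and 24.8 (17.1 to 30.3) for Cps1. Nags at 15.9 (13.9 to 17.5) and Aldh18a1 at 14.7 (11.5 to 16.4) followed, then Asl at 3.88 (3.39 to 4.58), Prodh at 1.99 (1.78 to 2.35) and Ass1 at 0.130 (0.0786 to 0.224). The ranges of Cps1 and Nags overlapped, as did those of Nags and Aldh18a1, and the other neighbours in this order did not. In knockouts Arg2 at 601 (514 to 685) and Oat at 425 (323 to 545) overlapped. Cps1 at 43.5 (32.4 to 62.6) took the third place, Aldh18a1 at 34.1 (30.8 to 37.8) the fourth, and Otc at 17.5 (14.4 to 21.0) the sixth, level with Nags at 17.5 (14.9 to 19.5). The knockout ranges of Cps1 and Aldh18a1 overlapped, and in knockout 476 Aldh18a1 (37.8) was above Cps1 (35.6).

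Each gene's share of the 9-gene total within a library was also taken, a measure that library scaling cannot move. Oat made up 23.6% ± 5.49 in controls and 36.9% ± 7.64 in knockouts (SD, n = 3), and Otc 5.26% ± 0.406 in controls and 1.53% ± 0.204 in knockouts (SD, n = 3). Aldh18a1 made up 1.91% ± 0.573 in controls and 3.01% ± 0.561 in knockouts (SD, n = 3), and Arg2 63.1% ± 5.75 in controls and 52.7% ± 8.48 in knockouts (SD, n = 3). Prodh made up 0.265% ± 0.0996 in controls and 0.0740% ± 0.0231 in knockouts (SD, n = 3). The genotypes did not overlap for these 5 shares, each with an exact two-sided permutation p of 0.10, the smallest that 3 against 3 allows, and an adjusted p of 0.18 over the 9 shares, so no share passed the threshold. The margin was narrow for Aldh18a1, at 2.566% in control 482 and 2.570% in knockout 477. The shares add up to the whole, so a higher share of Oat lowers the others; the lower share of Arg2 stands beside a level that did not pass the test. The shares of Nags, Cps1, Ass1 and Asl overlapped (exact permutation p of 0.20 to 0.90, adjusted p of 0.30 to 0.90). The log2 ratio of arginine-making (Ass1 plus Asl) to citrulline-making (Cps1 plus Otc) levels was -4.05 ± 0.047 in controls and -3.59 ± 0.62 in knockouts (SD, n = 3; exact permutation p = 0.40, adjusted p = 0.80 over 2 ratios). The log2 ratio of Arg2 to Ass1 plus Asl was 6.95 ± 0.26 and 6.92 ± 0.056 (exact permutation p = 1, adjusted p = 1).

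**Figure D3:**
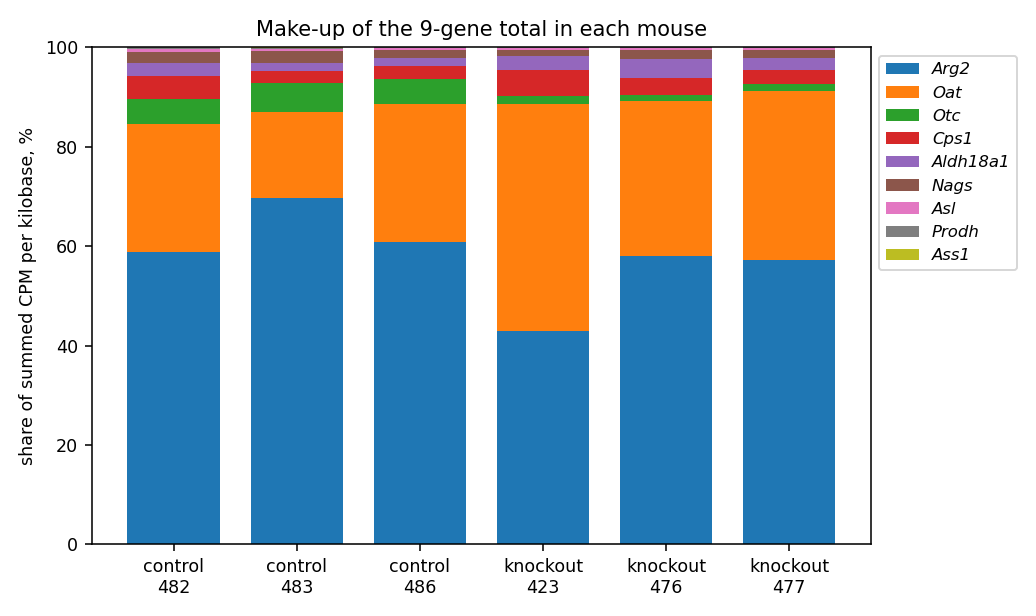
Share of each gene in the summed level of the 9 genes (CPM per kilobase of exon, vertical axis in percent), 1 stacked bar per mouse. Arg2 and Oat fill most of each bar, and Otc takes 4.98% to 5.72% in controls and 1.39% to 1.76% in knockouts.

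Upstream of these enzymes, genes that handle glutamine and glutamate moved in both directions. Of 13 genes on this list 11 were tested. Of these, 5 rose (45.5%, against 17.3% of all genes) and 3 fell (27.3%, against 18.3%). The median log2 fold change was 0.86. Glutamate dehydrogenase (Glud1), which moves carbon between glutamate and oxoglutarate, stood at 632 to 876 CPM in controls and 93.1 to 136 CPM in knockouts, a log2 fold change of -2.87 (adjusted p = 0.00013, SE 0.27). Bcat2, the mitochondrial branched-chain aminotransferase, fell as well (-1.23). Asns, which uses glutamine to make asparagine, rose (6.54 to 8.68 CPM in controls and 39.6 to 46.9 CPM in knockouts; log2 fold change 2.56, SE 0.21, adjusted p = 5.8e-05). Got2, the mitochondrial aspartate aminotransferase, rose too (15.5 to 18.5 CPM in controls and 57.6 to 99.3 CPM in knockouts; log2 fold change 2.21, SE 0.24, adjusted p = 0.00026). The others that rose were glutamine synthetase Glul (0.98) and the alanine aminotransferase genes Gpt (1.22) and Gpt2 (0.86), both named to complete the count. Got1, the cytosolic partner of Got2, had 179.5 ± 16.5 and 223 ± 40.6 CPM (SD, n = 3) and Gfpt1, which opens hexosamine synthesis, 209 ± 9.34 and 205 ± 27.7 CPM (SD, n = 3); neither passed the test. With library-size scaling alone 3 rose, and the call of Glul was lost (0.55, adjusted p = 0.11).

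Aldh4a1, which oxidises pyrroline-carboxylate to glutamate, stood at 85.8 to 182 CPM in controls and 7.31 to 12.9 CPM in knockouts (log2 fold change -3.48, SE 0.36, adjusted p = 0.00020). Pepd, the peptidase that frees proline from dipeptides, stood at 558 to 763 CPM in controls and 187 to 283 CPM in knockouts (log2 fold change -1.42, SE 0.25, adjusted p = 0.0031). Pycr1, a reductase that makes proline, did not pass, with every knockout above every control (0.810 to 0.927 CPM in controls and 1.38 to 2.17 CPM in knockouts; log2 fold change 1.05, SE 0.37, adjusted p = 0.051). Pycr1 passed under 8 of the 16 alternatives. The reductase gene listed as Pycrl had 44.9 ± 12.4 and 59.9 ± 13.0 CPM (SD, n = 3), with an adjusted p of 0.22 by edgeR, and the hydroxyproline oxidase gene Prodh2 did not pass the filter on low counts, at 0.254 to 1.42 CPM in controls and 0 to 0.0724 CPM in knockouts. It was tested under 6 alternatives and called lower in 5 of them, among them DESeq2 (adjusted p = 0.0038) and edgeR without a filter on low counts (adjusted p = 3.9e-05).

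Of 22 genes of arginine use and polyamines 19 were tested, at a median of 0.59. Of these, 6 rose (31.6%, against 17.3% of all genes) and 1 fell (5.26%, against 18.3%). Agmatinase (Agmat), which turns agmatine into the polyamine putrescine, showed the largest change of the list among tested genes, at 4.05, 5.64 and 5.51 CPM for controls 482, 483 and 486, against 99.4, 84.6 and 99.2 CPM for knockouts 423, 476 and 477. The groups were far apart, with a log2 fold change of 4.22 (adjusted p = 9.5e-06, SE 0.23). The acetyltransferase genes Sat1 (1.18, and 0.74 with library-size scaling alone), which starts polyamine breakdown, and Sat2 (1.55) rose with the polyamine oxidases Paox (2.14) and Smox (4.42 to 9.38 CPM in controls and 13.0 to 30.4 CPM in knockouts). Azin2, an antizyme inhibitor, rose by 2.80, whereas its paralog Azin1 had 585 ± 119 and 1051 ± 364 CPM (SD, n = 3) and did not pass (adjusted p = 0.054; it passed under 7 alternatives). Ornithine decarboxylase (Odc1), which competes with Otc for ornithine, stood at 157 to 261 CPM in controls and 157 to 247 CPM in knockouts, with a log2 fold change of -0.01 (95% interval -0.63 to 0.61, adjusted p = 0.98). The gene that fell was Gamt, a creatine synthesis enzyme (-2.13), at 0.970 to 1.48 CPM in controls and 0.0997 to 0.362 CPM in knockouts. Smox and Gamt were named to complete the counts.

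Of the mitochondrial carriers of this route 6 of 9 were tested. By edgeR 3 rose (50%, against 17.3% of all genes) and 0 fell (against 18.3%). By edgeR 0 were lower at an unadjusted p under 0.05, and DESeq2 called 0 lower. Citrin (Slc25a13), the aspartate and glutamate carrier, stood at 15.6 to 28.5 CPM in controls and 44.0 to 56.0 CPM in knockouts (log2 fold change 1.22, SE 0.25, adjusted p = 0.0057). The dicarboxylate carrier Slc25a10 stood at 164 to 206 CPM in controls and 315 to 424 CPM in knockouts (log2 fold change 1.05, SE 0.22, adjusted p = 0.0070) and the oxoglutarate carrier Slc25a11 at 136 to 199.9 CPM in controls and 292 to 351 CPM in knockouts (log2 fold change 0.94, SE 0.23, adjusted p = 0.012). The call of Slc25a11 was lost without control 483 (0.90, adjusted p = 0.052) and with library-size scaling alone (0.50, adjusted p = 0.058). Slc25a15, which exchanges cytosolic ornithine for citrulline, stood at 233, 348 and 286 CPM for controls 482, 483 and 486, against 215, 193 and 224 CPM for knockouts 423, 476 and 477. Every knockout lay below every control, but it did not pass (log2 fold change -0.45, 95% interval -0.95 to 0.04, adjusted p = 0.14). The glutamate carrier Slc25a22 had 259 ± 65.4 and 164 ± 65.7 CPM (SD, n = 3), with an adjusted p of 0.13 by edgeR. With library-size scaling alone Slc25a15 (-0.89) and Slc25a22 (-1.14) fell, and Slc25a22 also fell without a filter on low counts (-0.70).

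Of 21 plasma membrane carriers of arginine, glutamine, glutamate and proline 17 were tested, at a median of -1.27. Of these, 9 fell (52.9%, against 18.3% of all genes) and 2 rose (11.8%, against 17.3%). Slc7a7, the light chain that exports cationic amino acids across the basolateral membrane, stood at 350.2 to 457 CPM in controls and 152 to 203 CPM in knockouts (log2 fold change -1.27, SE 0.23, adjusted p = 0.0032). Its heavy chain partner Slc3a2 stood at 361 to 504 CPM in controls and 111 to 174 CPM in knockouts (log2 fold change -1.59, SE 0.25, adjusted p = 0.0018). Slc7a8, a basolateral carrier of neutral amino acids, fell furthest of the plasma membrane carriers named by the rule (266 to 517 CPM in controls and 48.9 to 65.0 CPM in knockouts; log2 fold change -2.85, SE 0.29, adjusted p = 0.00020), and the proline carrier Slc6a20a fell by 1.51. The glutamate carrier Slc1a1, outside the rule and named after its values were seen, stood at 10.3 to 49.7 CPM in controls and 0.690 to 3.87 CPM in knockouts (log2 fold change -4.15, SE 0.78, adjusted p = 0.0057). Slc7a5, another light chain of Slc3a2, rose from a low level (0.743 to 1.67 CPM in controls and 4.37 to 7.58 CPM in knockouts; log2 fold change 2.23, SE 0.39, adjusted p = 0.0030). The apical carriers Slc6a19 of neutral amino acids, at 1594 ± 154 and 1014 ± 311 CPM (SD, n = 3), and Slc7a9 of cationic amino acids, at 350.1 ± 64.1 and 287 ± 65.6 CPM (SD, n = 3), did not pass; with library-size scaling alone both fell (-1.12 and -0.74).

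**Figure D4:**
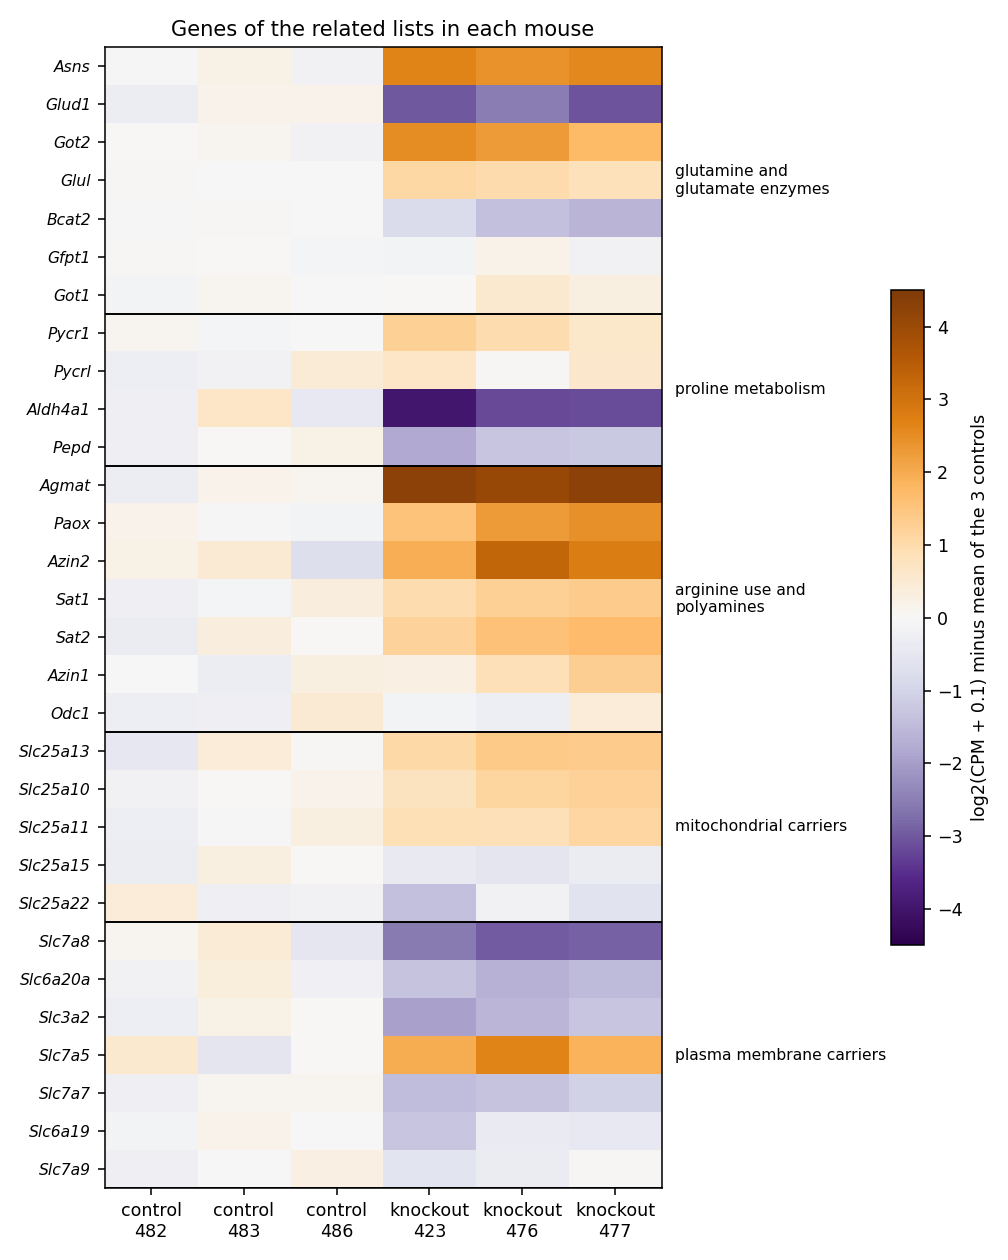
Genes of the related lists (rows, tested genes named in the text by the naming rule) in each mouse (columns); colour is log2(CPM + 0.1) minus the mean of the 3 controls, orange higher and purple lower. Agmat, Asns and Got2 are orange in all 3 knockouts, and Aldh4a1, Glud1 and Slc7a8 are purple in all 3.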

How the data were processed

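Counts per gene and per mouse are whole numbers that the authors deposited without normalization. A second table deposited by the authors gives log2-scale values after variance stabilisation, used for 1 alternative. Tools named per the submitters' processing notes are STAR 2.7.9a, Subread 1.6.2 with featureCounts, DESeq2 1.23.10, fastp 0.21.0, FastQC 0.11.7 and bcl2fastq, with the build mm10; annotation and strand setting were not given in the sources used here. GENCODE M21 (mm10) supplied symbols, coordinates and exon lengths (55190 of 55450 identifiers matched), promoters from RefSeq on GRCm38.p6.

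In R 4.3.3, edgeR 4.0.16 compared knockout with control: filterByExpr defaults, TMM scaling, robust quasi-likelihood test, Benjamini-Hochberg adjustment over all 15028 genes and a threshold of 0.05. The SE is the log2 fold change over the square root of F. CPM are TMM-scaled. Library totals were 23476031 to 46835165; libraries of one genotype differed by more than sampling noise (chi-square over its degrees of freedom at least 65.9), so none was merged. Intervals and floors cover counting error or the spread between these mice only. Genes named are the 9 enzymes, the 5 genes with the smallest adjusted p of each related list among those past the threshold, and the 2 most abundant not past it; genes of lists of up to 6 may all be named. The members and lists were chosen with earlier results of these data known, and section markers after the data were examined. Alternatives were 3 scalings, 2 filters, DESeq2 1.42.0, limma 3.58.1 (voom, and trend on the stabilised values), omission of the 20 most abundant genes, a length and GC correction, and each mouse left out. For shares and ratios they were levels without length scaling, the longest transcript as length, and each mouse left out. One targeted gene and some genes of the lists are not reported here.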

Additional observations from a re-analysis of the deposited data

How the results depend on the processing

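Aldh18a1, Prodh and Otc kept their direction and passed the threshold under all 16 alternatives. Oat kept its direction and lost its call under 5 of them, whereas Cps1 gained a call under 3. Ass1 had no value with the filter above 1 CPM in at least 3 libraries. With library-size scaling alone, 1133 genes were called higher and 4554 lower, 1 of the 9 genes was called higher, and the log2 fold changes of Nags (-0.30), Asl (-0.16) and Arg2 (-0.18) turned negative; with the length and GC trend removed Arg2 was also at -0.18. The cause was not tested. Without 1 mouse in turn, 1510 to 2958 genes were called higher and 1748 to 2982 lower, and 1 to 2 of the 9 genes were called higher. The counts fell below the main ones by over 1.5 times without control 482 (1510 and 1789), control 483 (1555 higher) and knockout 477 (1648 and 1748). Differences in share of the 9-gene total, knockout minus control, ran from -0.18 to 1.30 percentage points for Cps1 and from -0.0055 to 0.0059 for Ass1, and the log2 ratio of Arg2 to Ass1 plus Asl from -0.17 to 0.056. No paired analysis was possible because no animal number occurs in both genotypes. The low counts of Ass1 limit what can be said of it at this depth.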

Other observations

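Of 6 genes that mark enterocytes before or after weaning, 4 were lower (66.7%, against 18.3% of all genes) and 1 higher (16.7%, against 17.3%). Of 4 suckling markers, the lactase gene Lct stood at 1580 to 2680 CPM in controls and 38.8 to 75.4 CPM in knockouts (log2 fold change -5.18, SE 0.38, adjusted p = 3.8e-05), the lysosomal galactosidase gene Glb1 fell by 1.87, Cubn, the cubilin receptor gene, fell to 145 to 174 CPM from 267 to 445 CPM, and Fcgrt, the neonatal Fc receptor gene, rose by 1.11 (edgeR, all 6 mice; 0.68 with library-size scaling alone). With the length and GC trend removed Cubn was at -0.61. Of the adult markers, the trehalase gene Treh stood at 429 to 771 CPM in controls and 205 to 267 CPM in knockouts (log2 fold change -1.30, SE 0.27, adjusted p = 0.0067), and sucrase-isomaltase (Sis) at 5118 ± 803 and 4557 ± 904 CPM (SD, n = 3) did not pass the test.

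Of the 3 genes of pyrimidine synthesis from carbamoyl phosphate, Cad stood at 1.56 to 3.52 CPM in controls and 1.90 to 6.40 CPM in knockouts. Dhodh stood at 1.92 to 3.44 CPM in controls and 2.82 to 6.66 CPM in knockouts. Umps stood at 3.04 to 6.09 CPM in controls and 4.35 to 7.82 CPM in knockouts. The 3 genes gave 0 calls by edgeR, and 0 had an unadjusted p under 0.05. DESeq2 called 0 as well. For the intestinal section, which the labels do not give, 5 proximal and 4 distal markers were examined. Gata4, largely absent from the ileum, stood at 105 to 121 CPM in controls and 104 to 134 CPM in knockouts, and Fabp6, the ileal bile acid binding protein gene, at 1.87 CPM or less in every library. Fabp1 (2.14) and Slc40a1 (3.78) rose among the proximal markers, Onecut2 and Cybrd1 did not pass the test, and of the distal ones Cubn fell, Slc10a2 (adjusted p = 0.0501) and Fabp6 did not pass and Fgf15 was not tested. Their part in the levels of the 9 genes was not tested.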
